A study of Mus musculus with 9 samples.

Results

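Slco2a1 encodes the prostaglandin transporter, a member of the organic anion transporting polypeptides that the Slco genes encode, and it was examined here in mouse liver together with 8 relatives, namely Slco1a1, Slco1a4, Slco1a5, Slco1a6, Slco1b2, Slco2b1, Slco3a1 and Slco4a1. All 9 genes were found among probe sets that the platform annotation pairs with a single gene symbol, and they had 23 of the 41782 probe sets tested. The genes were listed by name, with Slco2a1 put first because its difference between the diets was known, so that its values are given as a description and with no p-value. Total liver RNA of c57Bl/6 mice was measured on Affymetrix GeneChip arrays, 4 labelled control and 5 labelled HFD. The high-fat diet (HFD) held 21% fat and supplied 42% of calories from fat. All mice had eaten chow before the study, and beyond the name control the labels do not describe the other diet. They give no genetic change, age or time on diet. Diet was the only factor in the comparison, and the sex of the mice did not enter it. Each array has a code of its own in its title, but the labels do not say that a code stands for a mouse. P-values therefore rest on the spread between arrays alone, part of which may be technical.

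Organic anion transporting polypeptides are membrane proteins that move large, amphipathic organic anions into cells without using ATP directly. In liver those of the basolateral hepatocyte membrane take up bile acids, bilirubin, steroid conjugates, thyroid hormones and many drugs from the blood. The prostaglandin transporter differs from these in its substrates. It carries prostaglandins into cells, where a dehydrogenase inactivates them, and it is known from endothelial cells of several tissues. Slco1a1, Slco1a4, Slco1a5, Slco1a6 and Slco1b2 lie in 1 gene cluster and are similar in sequence, so that their probe sets may bind relatives.

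Values below are relative to a baseline set for each probe set, in log2 units. Levels of different genes therefore cannot be ranked, and whether a gene or a liver cell marker was present at all cannot be read. Differences are given in log2 units as HFD less control, ± the standard error from limma, and a probe set passed when its adjusted p in limma was under 0.05 over all 41782 probe sets. Array medians lay between -0.01 and 0.00, and HFD replicate 5 had the widest spread of values over all probe sets (SD 0.335, against 0.221 to 0.267 on the other arrays) and the lowest array weight in limma (0.461, against 0.745 to 1.35).

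The sequences in front of the start sites of Slco2a1 and Slco2b1 are shown because these were the 2 genes with a probe set past the threshold, in opposite directions. They are the 250 bases before the annotated start in RefSeq (build GRCm38.p6), and for Slco2b1, which has 3 annotated starts, the one farthest upstream. Capitals mark matches to GGGCGG, the GC box, looked for on both strands, and to TATAAA, the TATA box, looked for on the sense strand.
Slco2a1, chr9:103008237-103008486, plus strand: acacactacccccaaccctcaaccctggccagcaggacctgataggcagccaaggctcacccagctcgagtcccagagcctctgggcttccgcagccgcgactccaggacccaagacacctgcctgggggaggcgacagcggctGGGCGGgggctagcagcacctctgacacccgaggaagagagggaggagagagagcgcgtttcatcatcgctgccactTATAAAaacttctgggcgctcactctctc
Slco2b1, chr7:99711341-99711590, minus strand: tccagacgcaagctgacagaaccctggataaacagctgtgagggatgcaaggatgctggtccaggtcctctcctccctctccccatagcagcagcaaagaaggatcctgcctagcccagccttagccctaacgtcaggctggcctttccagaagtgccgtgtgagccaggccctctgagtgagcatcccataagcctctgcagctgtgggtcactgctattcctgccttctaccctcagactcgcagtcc

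The Slco2a1 stretch holds 1 GC box, at 106 bases before the start, and 1 TATA box, at 29 bases before it, and its GC content is 63.2%. Of 32851 RefSeq promoters of the same length, 32.7% hold GGGCGG and 7.59% hold TATAAA. The TATA box was searched for after the Slco2a1 sequence had been seen. None of the 3 Slco2b1 stretches matched either motif or the further ones searched on both strands, GTTAAT, part of the HNF1 motif, and AGGTCA, part of the motif of many nuclear receptors. Promoters of 8 of the 9 genes were matched, 12 sequences in all. GGGCGG was found in 2 of them, that of Slco2a1 and the upstream one of Slco4a1, and TATAAA in 4, those of Slco2a1 and Slco1b2 and both of Slco1a5. GTTAAT was found in 1 of them, that of Slco1b2, against 6.43% of all promoters, and AGGTCA in 3, those of Slco1a1, Slco1b2 and the downstream start of Slco4a1, against 14.0%.

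Slco2a1 was lower in the HFD group with each of its 4 probe sets. In probe set 1420913_at the control arrays stood at 1.43, 1.42, 1.24 and 1.33, and the HFD arrays at -0.05, 0.05, -0.13, -0.07 and -0.16. The groups were far apart and each was narrow, the control mean being 1.35 ± 0.09 (SD, n = 4) and the HFD mean -0.07 ± 0.08 (SD, n = 5). The difference was -1.43 ± 0.08, which is 2.69-fold, and 0.237% of all probe sets had a lower one. As the gene was chosen on this contrast, that rank is a description and not a test.

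In 1450032_at the control arrays stood at 1.04, 1.11, 0.38 and 0.52 and the HFD arrays at -0.13, 0.13, -0.48, -0.22 and -0.57, a difference of -1.02 ± 0.18. Here control replicates 1 and 2 were above the other controls, yet no HFD array reached the lowest control. In 1444242_at the controls read 0.53, 0.16, 0.19 and 0.52 against -0.16, -0.18, -0.16, -0.25 and -0.49 in HFD, a difference of -0.60 ± 0.11. The smallest difference was that of 1420914_at, with controls at 0.01, 0.11, 0.06 and 0.14 and HFD arrays at -0.36, -0.22, -0.45, -0.01 and -0.40. It came to -0.37 ± 0.10 and did not pass, and HFD replicate 4 lay just under control replicate 1.

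Of the 23 probe sets of the 9 genes, 4 passed, where 3.26% of all probe sets did. Of these 3 were lower, all of Slco2a1, against 1.23% of all probe sets, and 1 was higher, against 2.04%. The groups did not overlap in 4 lower probe sets, those of Slco2a1, against 3.50% of all, and in 1 higher one, of Slco2b1, against 4.50%. The median difference was -0.08 over the 23 probe sets, -0.03 over the 19 of the other genes and -0.01 over all probe sets. The lower count of 3 was 2 without control replicate 2 or 4 and 4 without HFD replicate 4. As Slco2a1 was chosen on this contrast, nothing is read from its share of these counts. Of the 19 probe sets of the other genes, 1 passed.

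**Figure D1:**
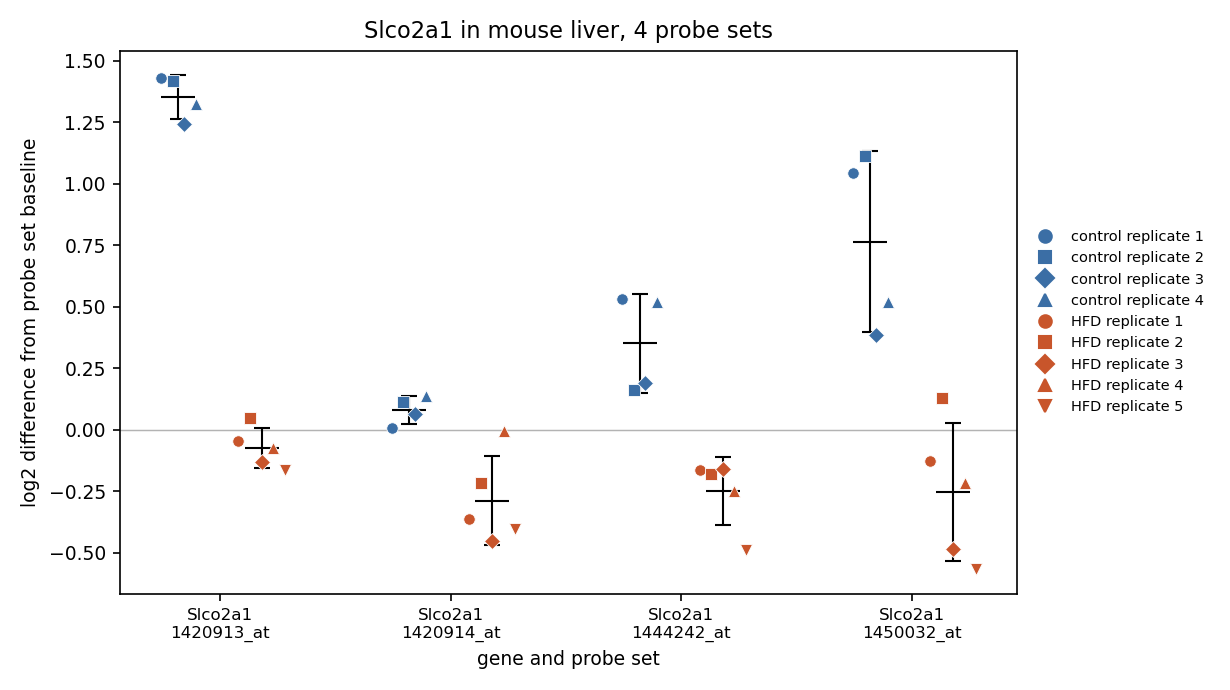
Values of the 4 Slco2a1 probe sets on each array, as log2 differences from the baseline of the probe set (vertical axis), with controls in blue, HFD in orange, 1 symbol per replicate, and bars for mean and SD. In 1420913_at all controls lie at 1.24 or above and all HFD arrays at 0.05 or below, and in 1420914_at the groups nearly touch.

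The probe sets of Slco2a1 also differed in how they varied within a group. Deviations from the group means of 1420913_at and 1450032_at followed each other over the 9 arrays (Pearson r = 0.97), whereas those of 1420914_at and 1444242_at followed 1420913_at less closely (r = 0.28 and 0.42). Of the 4 probe sets, 3 were designed on the same transcript entry and 1444242_at on another one. By the same measure, the other genes most like 1420913_at were 2310047D07Rik (r = 0.98), Psen2, a presenilin of the gamma-secretase complex (r = 0.98), Fam136a (r = 0.97), Sgf29, a subunit of histone acetyltransferase complexes (r = 0.97) and Mrps16, a protein of the mitochondrial ribosome (r = 0.97). These values were picked as the highest r among the probe sets of all other genes over only 9 arrays, so that high values can come from the choice alone. They also rest on small deviations and share the arrays and their normalization. No shared regulation is read from them. None of these 5 genes passed the comparison of diets in that probe set, with differences between -0.14 and 0.23.

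Markers of cells other than hepatocytes moved in the same comparison. Of 22 probe sets of 14 endothelial markers 4, from 2 of the genes, fell, where 1.23% of all probe sets did. None rose, and the median difference was -0.73. The 4 lower ones came from Fcgr2b and Stab1. They were 3 of the Fc receptor gene Fcgr2b (4.01-fold lower in the one of lowest p) and 1 of the scavenger receptor gene Stab1 (-0.82 ± 0.19). Differences were negative in 21 of the 22, and 17 had an unadjusted p under 0.05 in limma, against 16.4% of all probe sets. The lists here and below were chosen with earlier results of these data known, so that nothing is read from such shares. Flt4, a receptor of vascular endothelial growth factors (-1.03 ± 0.25, adjusted p = 0.0506), did not pass. The array means of this list ran from 0.13 to 0.55 in control and from -0.96 to 0.18 in HFD, so that the groups overlapped. HFD replicate 4, at 0.18, lay above control replicate 4, at 0.13. For Slco2a1 the same arrays read -0.07 and 1.33 in 1420913_at, -0.22 and 0.52 in 1450032_at and -0.25 and 0.52 in 1444242_at. In 1420914_at they read -0.01 and 0.14, and there HFD replicate 4 was the highest HFD array. Nothing is read from this 1 pair of arrays. Within the groups, r with the endothelial mean over the 9 arrays was 0.23 for 1420913_at, 0.33 for 1450032_at, 0.45 for 1420914_at and 0.17 for 1444242_at. On removal of HFD replicate 2, of HFD replicate 3 or of any control, no endothelial probe set passed. The count became 2 on removal of HFD replicate 5, 8 on that of HFD replicate 1 and 11 on that of HFD replicate 4.

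All 13 probe sets of 10 Kupffer cell markers had negative differences, each with an unadjusted p under 0.05 in limma. Of these 9 fell past the threshold, where 1.23% of all probe sets did, and none rose, with a median of -1.17 over the 13. They included Csf1r, the receptor that sustains macrophages (-1.15 ± 0.18), Timd4, a receptor of apoptotic cells (-1.17 ± 0.20), and Folr2, a folate receptor of macrophages (-1.25 ± 0.22). Array means were 0.14 to 1.21 in control and -1.06 to 0.05 in HFD, and r within the groups was 0.41 for 1420913_at, 0.56 for 1450032_at, 0.38 for 1420914_at and -0.01 for 1444242_at. Among the other members, r with the Kupffer mean ran from -0.80 (Slco4a1 1438160_x_at) to 0.74 (Slco3a1 1418030_at). With the endothelial mean it ran from -0.66 (Slco4a1 1438160_x_at) to 0.55 (Slco1b2 1427826_a_at). Over only 9 arrays, no link to these cells is read from the Slco2a1 values. The count of 9 became 3 on removal of control replicate 1, 2 or 3 or of HFD replicate 3, 4 on that of HFD replicate 2 and 5 on that of HFD replicate 1. It was 6 without HFD replicate 5 and 10 without control replicate 4 or HFD replicate 4. All 4 neutrophil probe sets were lower at an unadjusted p under 0.05, with a median of -1.11, and S100a9, a calgranulin, fell past the threshold (-1.97 ± 0.45). The array means of that list did not overlap either, at 0.10 to 0.61 in control and -1.73 to -0.17 in HFD. No neutrophil probe set passed on removal of any control or of HFD replicate 2 or 3, and 2 did on removal of HFD replicate 1 or 4. Among 19 of stellate cells Lrat, the enzyme of retinol storage, rose (0.71 ± 0.17), and Reln (-0.53 ± 0.13) and Ecm1 (-0.56 ± 0.15) did not pass. The list median was -0.09. The higher count of 1 stayed 1 on removal of HFD replicate 1 and was 0 on that of each other array and after array medians were subtracted, and without HFD replicate 4 there were 4 lower stellate probe sets. None of 7 cholangiocyte, 4 lymphocyte or 3 adipocyte probe sets passed by limma, and 0 of them had an unadjusted p under 0.05. The array means of the hepatocyte markers were also separate, at 0.04 to 0.16 in control and -0.16 to -0.05 in HFD, with 12 of 16 probe sets negative and a median of -0.08. These means include the probe sets of Hnf4a. Without the 25% of all probe sets that varied least, 7 of the 16 remained, with a median of -0.37. Among the hepatocyte markers only Hnf4a, a factor that defines hepatocytes, had a probe set that fell (-0.91 ± 0.18). Fgb, a fibrinogen chain (-0.37 ± 0.10), Cps1, of the urea cycle (-0.26 ± 0.11), Alb (-0.06 ± 0.07) and the 4 probe sets of Ttr (-0.01 to 0.04) did not pass. Fewer cells of a type and less RNA per cell cannot be told apart in whole liver, and the part of these cells in the Slco2a1 difference was not tested beyond the values given.

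**Figure D2:**
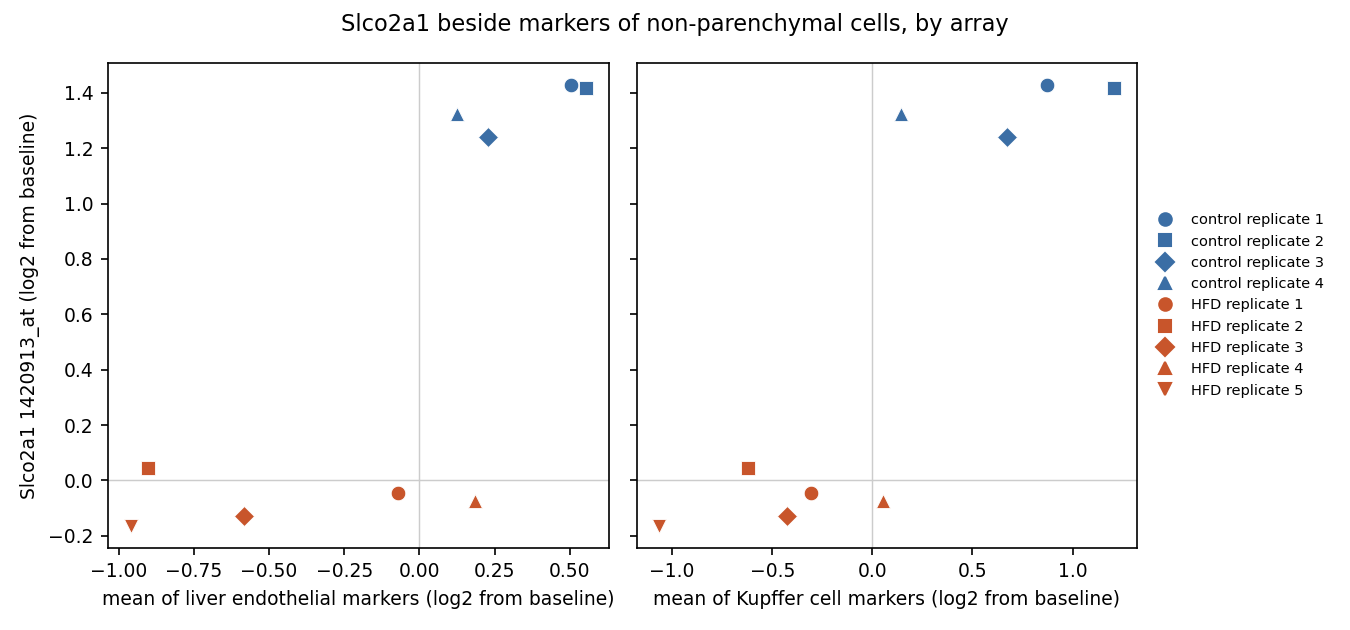
Slco2a1 in probe set 1420913_at (vertical axis) against the mean of the endothelial markers (left) and of the Kupffer cell markers (right) on each array, all as log2 differences from baseline, with controls in blue and HFD in orange. The groups are separate in Slco2a1, and in the endothelial mean HFD replicate 4 (0.18) lies to the right of control replicate 4 (0.13).

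Other genes of the prostaglandin pathway were then compared. Of 11 probe sets for 8 measured genes of prostaglandin synthesis 1 fell and none rose, with a median of -0.16, and 3 had an unadjusted p under 0.05. This was Tbxas1, the thromboxane synthase, which read 0.16, 0.09, 0.20 and 0.11 in control and -0.25, -0.09, -0.35, -0.12 and -0.27 in HFD, so that the groups did not overlap. Its difference was -0.36 ± 0.08 (adjusted p = 0.0302), and the call held only when HFD replicate 2 or HFD replicate 4 was the array left out. Ptges2, a prostaglandin E synthase (0.26 ± 0.08, adjusted p = 0.102) and Ptgds, the prostaglandin D synthase (-0.43 ± 0.18 and -0.52 ± 0.30, adjusted p = 0.270 and 0.434), did not pass.

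Breakdown and export were covered by 11 probe sets of 5 genes, none of which passed in limma (3 had an unadjusted p under 0.05), with a median of -0.09. The gene of the dehydrogenase that inactivates prostaglandins after uptake, Hpgd, differed by 0.30 ± 0.08 in 1419906_at (adjusted p = 0.0572) and by -0.09 ± 0.15 in 1419905_s_at. Ptgr1, a prostaglandin reductase (-0.35 ± 0.14), and Abcc4, an exporter of prostaglandins and cyclic nucleotides (-0.39 ± 0.17), had adjusted p-values of 0.240 and 0.283. Of 13 probe sets for the 9 prostanoid receptors none passed in limma, 0 had an unadjusted p under 0.05, and all differences lay between -0.12 and 0.09, the lowest that of Ptger4 (-0.12 ± 0.09, adjusted p = 0.584). Ptgdr (-0.09 ± 0.08) and Ptger3 (0.09 ± 0.08) were the next by p.

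Slco2b1, which encodes a carrier of steroid sulfates and drugs, was higher in HFD with 1 of its 3 probe sets. In 1433933_s_at the controls stood at -0.17, -0.09, -0.29 and -0.09 and the HFD arrays at 0.14, 0.23, 0.32, 0.09 and 0.30. All HFD arrays were above all controls, and the difference of 0.38 ± 0.08, or 1.30-fold, passed (limma, adjusted p = 0.0300). Probe set 1454777_at, designed on the same sequence, read -0.02, 0.02, -0.33 and -0.10 in control and 0.08, 0.23, 0.09, 0.23 and -0.10 in HFD. HFD replicate 5 lay among the controls there, and the difference of 0.21 ± 0.10 did not pass (adjusted p = 0.316). The third, 1458171_at, differed by -0.08 ± 0.13. The call of 1433933_s_at ended when control replicate 1, 2, 3 or 4 or HFD replicate 2, 3 or 5 was left out, at differences of 0.33 to 0.40 and adjusted p-values of 0.0547 to 0.0974. Averaged over its probe sets Slco2b1 differed by 0.17 (adjusted p = 0.228).

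**Figure D3:**
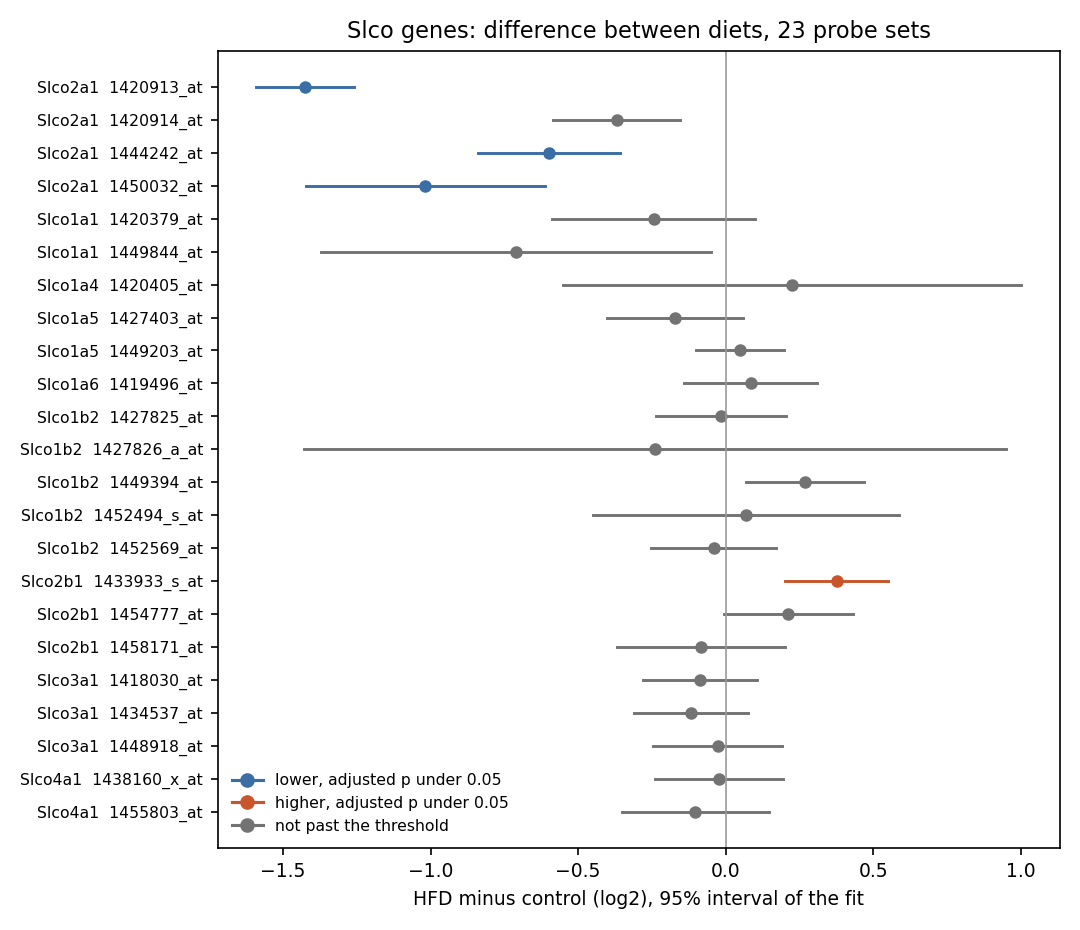
Difference between HFD and control on the log2 scale (horizontal axis) for each of the 23 probe sets, with the 95% interval of the fit, coloured by whether the adjusted p in limma was under 0.05. The 4 Slco2a1 probe sets lie between -1.43 and -0.37, and the widest interval is that of Slco1b2 in 1427826_a_at, from -1.43 to 0.95.

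None of the 11 probe sets of the 5 Slco1 genes passed in limma, and 2 of them had an unadjusted p under 0.05, which 16.4% of all probe sets had. Slco1a1, an uptake carrier that mouse livers express more in males, differed by -0.71 ± 0.30 in 1449844_at (adjusted p = 0.265). The controls read 0.49, 0.33, 0.44 and -0.04 and the HFD arrays 0.04, 0.33, -1.17, -0.14 and -1.10. HFD replicates 3 and 5 stood below all others, and HFD replicates 1 and 2 lay within the range of the controls. Its other probe set, 1420379_at, followed within the groups (r = 0.77) with a difference of -0.24 ± 0.16, and there HFD replicate 3 was again the lowest, at -0.57, while HFD replicate 5 stood at -0.11. Without HFD replicate 5 the difference in 1449844_at was -0.54 ± 0.28.

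Other male-biased liver genes were lower in the same arrays. Of 18 probe sets of 11 such genes 12 fell, where 1.23% of all probe sets did, and none rose, with a median of -0.95. The count of 12 was 8 to 12 with 1 array left out, 7 at an adjusted p under 0.01 and 4 without moderated variances. The 12 included Ugt2b38, a glucuronosyltransferase (-2.77 ± 0.39), Nudt7, a peroxisomal hydrolase of coenzyme A (4 probe sets, -1.34 to -0.46), and Serpina4-ps1 (-2.45 ± 0.32 in the probe set of lowest p). The array means of this list did not overlap, at 0.64 to 1.26 in control and -0.75 to 0.03 in HFD, whereas those of Slco1a1 did. Within the groups, r of the male-biased mean with Slco2a1 was 0.52 for 1420913_at, 0.57 for 1450032_at, -0.09 for 1420914_at and -0.20 for 1444242_at. With Slco1a1 it was 0.52 for 1449844_at and 0.63 for 1420379_at. It was -0.65 for Slco1a4, and no link is read from these values over only 9 arrays. Of the female-biased genes 1 of 11 probe sets rose, that of Cyp2b9, a cytochrome P450 (4.19 ± 0.67), and Sult1e1, an oestrogen sulfotransferase (0.58 ± 0.14), and Cyp2b13, another cytochrome P450 (0.55 ± 0.16), did not pass. The median of that list was 0.10, and 4 of its 11 probe sets had an unadjusted p under 0.05 in limma. Its array means did not overlap, at -0.37 to -0.29 in control and -0.07 to 0.46 in HFD. These means include Cyp2b9, which had the largest difference of the list.

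Slco1a4, a carrier of cardiac glycosides and bile acids whose transcript mouse livers express more in females, spread widely in both groups. The controls read -0.96, -1.21, 0.09 and 0.43 and the HFD arrays -0.82, -0.55, -0.03, 0.03 and 0.43. Low and high arrays were found under either diet, and the difference of 0.23 ± 0.35 did not pass (adjusted p = 0.813). Its interval, from -0.55 to 1.00, covers differences of either sign.

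Slco1b2 encodes the mouse counterpart of the human OATP1B carriers, which clear bilirubin and many drugs from the blood. Its 5 probe sets gave different pictures. In 1449394_at the controls stood at -0.06, -0.15, -0.04 and 0.03 and the HFD arrays at 0.37, 0.27, 0.19, -0.03 and 0.27. All HFD arrays but replicate 4 were above the controls, and the difference of 0.27 ± 0.09 did not pass (adjusted p = 0.155). Without HFD replicate 4 it was 0.33 ± 0.08 and passed (adjusted p = 0.0488).

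In 1427826_a_at of Slco1b2 the controls were close together, at 0.19, -0.14, 0.14 and -0.24, and the HFD arrays were split, at 0.64, 0.72, -1.19, 0.63 and -2.08. The SD was 0.21 in control and 1.30 in HFD, and 0.627% of all probe sets varied more over the 9 arrays. The same arrays were split in 1452494_s_at, with HFD replicates 3 and 5 at -0.34 and -0.73 and the other HFD arrays at 0.23 to 0.55 (r = 0.98 within the groups between these probe sets). The differences were -0.24 ± 0.54 and 0.07 ± 0.23, and without HFD replicate 5 they were 0.22 ± 0.37 and 0.26 ± 0.17. The remaining probe sets of Slco1b2, 1427825_at and 1452569_at, differed by -0.02 ± 0.10 and -0.04 ± 0.10.

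**Figure D4:**
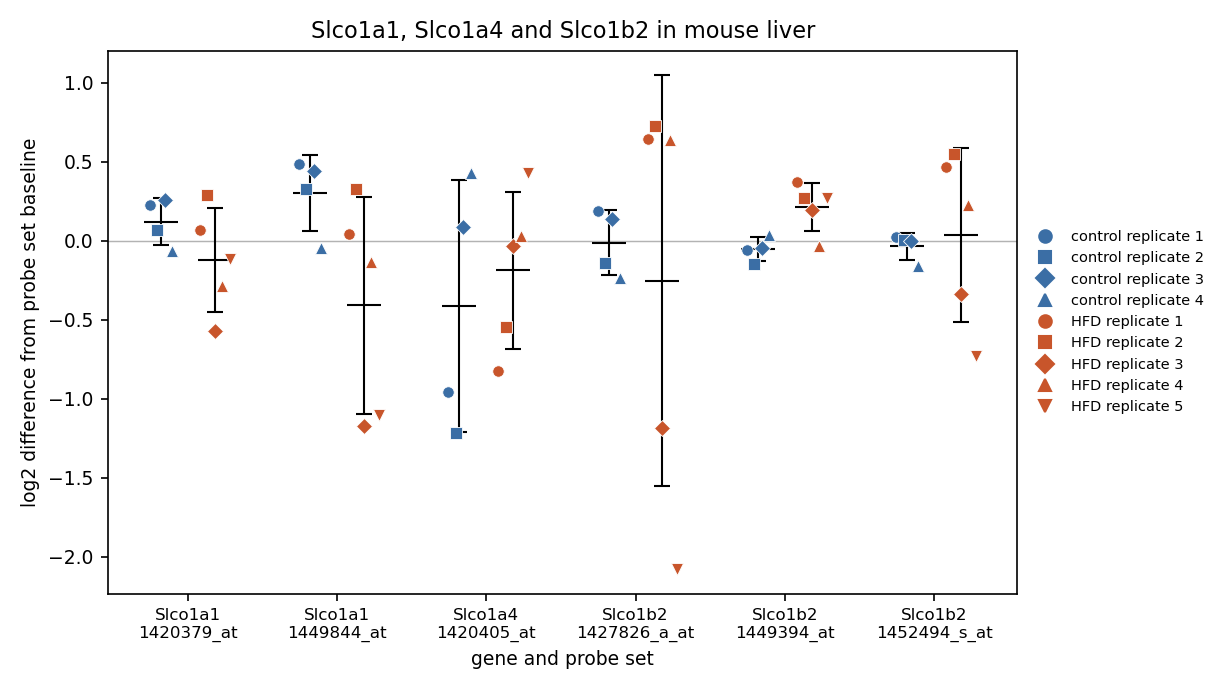
Values of Slco1a1, Slco1a4 and 3 Slco1b2 probe sets on each array, as log2 differences from the baseline of the probe set (vertical axis), with controls in blue, HFD in orange, 1 symbol per replicate, and bars for mean and SD. HFD replicates 3 and 5 are the lowest arrays in Slco1a1 1449844_at and in Slco1b2 1427826_a_at and 1452494_s_at, and not in Slco1b2 1449394_at.

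The remaining members of that cluster varied little. Slco1a5, a carrier known from intestine and choroid plexus, differed by -0.17 ± 0.10 in 1427403_at (adjusted p = 0.463) and by 0.05 ± 0.07 in 1449203_at. Slco1a6, known mainly from kidney, differed by 0.08 ± 0.10 (adjusted p = 0.746). The more widely expressed relatives, Slco3a1 and Slco4a1, a thyroid hormone carrier, had 5 probe sets with differences of -0.12 to -0.02, none past the threshold. The lowest adjusted p was 0.566 for Slco3a1 (1434537_at, -0.12 ± 0.09) and 0.719 for Slco4a1 (1455803_at, -0.10 ± 0.11). Of the 18 probe sets of the 8 relatives that did not pass, 13 had a 95% interval within 0.5 log2 units of 0 on both sides. The other Slco genes on the array, 6 genes with 7 probe sets, had a median of -0.08, none past the threshold by limma and 1 with an unadjusted p under 0.05. The lowest p among them was that of Slco6b1 (-0.20 ± 0.08, adjusted p = 0.206), followed by Slco5a1 (-0.14 ± 0.08) and Slco1c1, a thyroid hormone carrier of the brain (-0.08 ± 0.08).

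Among other uptake carriers of the hepatocyte none of 15 probe sets for 9 genes passed in limma (2 had an unadjusted p under 0.05), with a median of -0.03. Slc22a7, an organic anion carrier of the same membrane, differed by -0.78 ± 0.29 (adjusted p = 0.197), Slc29a1, a nucleoside carrier, by -0.49 ± 0.15 (adjusted p = 0.127) and Slc22a5, the carnitine carrier, by -0.45 ± 0.24 (adjusted p = 0.398). Regulators of hepatic Slco genes moved in both directions, with 4 of 26 probe sets higher, 1 lower and a median of 0.09. Nfe2l2, the factor of the antioxidant response, rose by 0.91 ± 0.17 in 1 of its 2 probe sets (adjusted p = 0.0161), and Ppara, the nuclear receptor of fatty acid breakdown, rose in 3, by up to 1.34 ± 0.26. The probe set of Hnf4a that fell was 1 of 4, and the others ranged from -0.52 to -0.14. The higher count of 4 was 0 without control replicate 2, 1 without control replicate 4 or HFD replicate 3, and 2 without HFD replicate 1, 2 or 5. On removal of HFD replicate 3 or of any control no regulator was lower past the threshold, and on that of HFD replicate 5 there were 2.

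**Figure D5:**
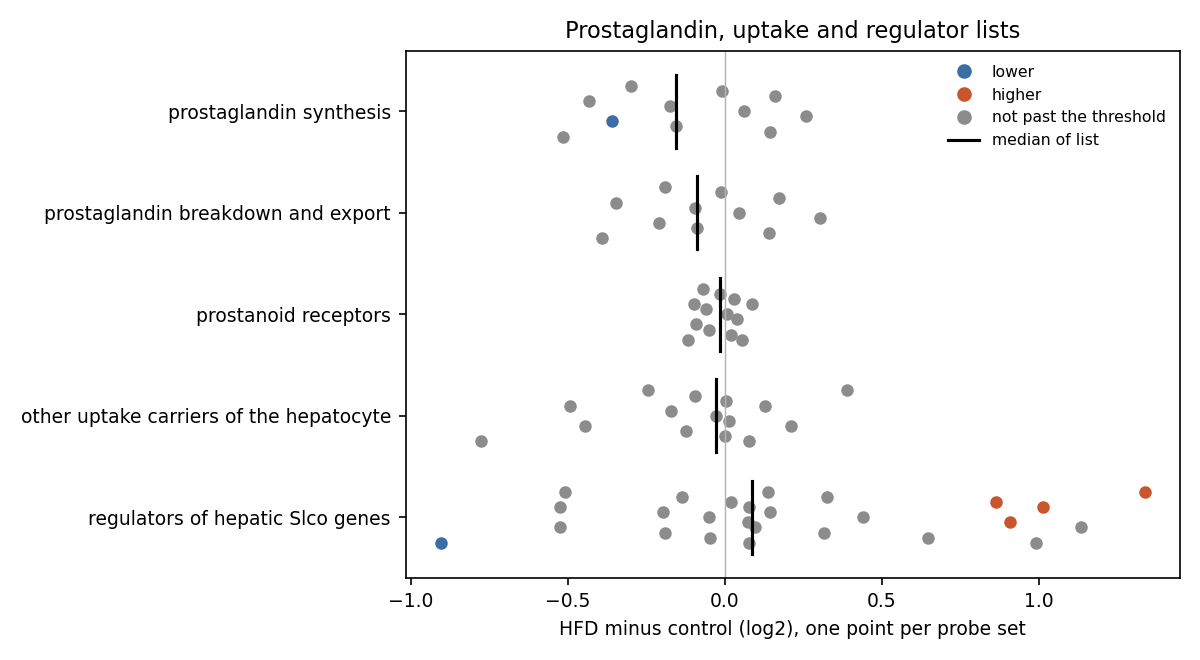
Differences between HFD and control on the log2 scale (horizontal axis) for the probe sets of the prostaglandin, uptake and regulator lists, 1 point per probe set, coloured where the adjusted p was under 0.05, with the median of each list as a black line. The list medians run from -0.16 to 0.09, and the 13 receptor probe sets keep within -0.12 and 0.09.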

How the data were processed

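Biotin-labelled targets made from total liver RNA were measured on Affymetrix arrays, per the labels' protocols. The deposited values were summarised by RMA, quantile normalized and set to the median of all samples by the authors, per the series' design text. The submitters' processing notes give RMA no version. No log base is given in the sources used here. The deposited values have both signs and RMA returns log2, so they were read as log2 differences. A pair of middle values of opposite sign and equal size (tolerance 1e-05) in 92.8% of probe sets points to a median over 10 arrays, and 9 arrays were used here. Centring hides levels, so that no filter on low signal was possible.

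The table had 41842 rows, and its 60 control probe sets stayed out. The annotation gave 32801 probe sets 1 symbol, 862 several and 8119 none. No pair of arrays was identical. Control and HFD were compared for every probe set with limma 3.58.1 in R 4.3.3 (lmFit, eBayes, two-sided, Benjamini-Hochberg over 41782, no covariate), a script checked on simulated data. Members and gene lists were chosen with earlier results of these data known. Values are given for every Slco2a1 probe set and, for other members, for those past the threshold or else of lowest p, and for up to 3 genes of lowest p per list. Further probe sets of Slco1b2, Slco1a1 and Slco2b1, other markers and the Ttr and Alb values were named after their values were seen. Likeness is Pearson r on deviations from group means. List genes without a probe set of their own symbol are not analysed here. Alternatives are given in the closing section.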

Additional observations from a re-analysis of the deposited data

Results flagged for a closer look

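In 46 sets of arrays, a group within a member probe set, 3 had 1 array far from the rest by Dixon's criterion, where chance gives about 1 in 20. HFD replicate 5 read -0.489 for Slco2a1 in 1444242_at, below the other HFD arrays (-0.25 to -0.16) and on the side away from the controls. HFD replicate 1 read -0.123 for Slco1a5 in 1449203_at, with the other HFD arrays at 0.00 to 0.03. Control replicate 4 read -0.163 for Slco1b2 in 1452494_s_at, with the other controls at 0.00 to 0.02.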

How the results depend on the processing

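No paired analysis was possible because the labels give the arrays of the 2 groups no shared numbers. The number of arrays limits the precision, and centred values hide the signal over background. The difference of Slco2a1 in 1420913_at, a description since the gene was chosen on this contrast, ranged from -1.46 to -0.85 over 20 alternatives, the last being the mean of its probe sets. Of the member probe sets 3 were lower and 1 was higher. With any 1 array left out, 2 to 4 were lower and 0 to 2 higher. The lower count was 1 with 1 value per gene, as the mean of its probe sets or the one of largest SD, where it counts genes, and 1 without moderated variances or at an adjusted p under 0.01. The higher count was 0 with the mean of probe sets, without probe sets that end in _x_at or _s_at (which takes out the Slco2b1 probe set that passed), without moderated variances, at an adjusted p under 0.01 and without control replicate 1 and HFD replicate 5 together. Slco2b1 in 1433933_s_at kept its sign under 19 alternatives (0.17 to 0.41) and lost its call under 10 of them. Among uncalled differences, Slco1a4 ranged from -0.04 (without control replicate 2) to 0.51 with 1 array left out and turned to -0.11 without control replicate 1 and HFD replicate 5 together. Slco1b2 turned to -0.24 when its probe set of largest SD stood for the gene. Calls of the gene lists also depended on these settings. The 9 lower Kupffer cell probe sets became 0 without moderated variances and 1 at an adjusted p under 0.01. The 4 lower endothelial and the 4 higher regulator probe sets became 0 under both. Over all probe sets 1363 passed, against 427 without moderated variances, 369 at an adjusted p under 0.01, 2387 at 0.1 and 546 to 1481 with 1 array left out. The causes were not tested.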
